A study of Mus musculus with 6 samples.

Results

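The genes described here are 8 rows of an Affymetrix array table that encode the ID proteins and core parts of the BMP pathway. They are *Id1*, *Id2*, *Id3* and *Id4*, the ligand *Bmp4*, the receptors *Bmpr1a* and *Bmpr1b*, and the signal transducer *Smad1*. They were chosen by their identifiers, all 8 were found among the 17144 genes analyzed, and no filter on low values was applied. Wild type ESCs were compared with NPCs, and each cell type had 3 arrays, 1 per biological replicate. The ESCs are the mouse line V6.5, derived from a blastocyst of a 129SvJae/C57B6 F1 background and grown with fetal bovine serum and LIF. The NPCs are neural precursors derived from these ESCs in vitro and kept in N3 medium, which the methods supplement with bFGF, EGF and laminin. Both groups are thus unmodified cultures of a single genetic background, and the NPCs model neural precursors in culture, not in tissue. The medium differs between the groups as well, so differences due to medium and to cell type cannot be told apart. ESC replicates 1 to 3 are the arrays ES1, ES2 and ES3, and NPC replicates 1 to 3 are NP106, NP107 and NP39.

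BMPs are secreted ligands that bring type I and type II receptors together at the cell surface. The type I receptors then phosphorylate SMAD1 and its relatives, which enter the nucleus with SMAD4, and the *Id* genes are among the best known direct targets. ID proteins have a helix-loop-helix domain but no DNA-binding region, so they pair with E proteins and keep these from acting with proneural factors. In mouse ESCs, BMP or serum together with LIF is known to sustain self-renewal through *Id* genes, whereas in neural precursors BMP and ID proteins are known to hold back neurons and favor astrocytes.

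The sequences upstream of *Id2*, *Id3* and *Id4* are shown because these family members differed most between the cell types or among the NPC arrays. Each is the run of 250 bases that ends just before an annotated transcription start in RefSeq (build GRCm38.p6), written 5′ to 3′ on the strand of the gene. *Id2* lies at chr12:25096093-25096342 on the minus strand, *Id3* at chr4:136143572-136143821 on the plus strand and *Id4* at chr13:48260866-48261115 on the plus strand. Capitals mark GGCGCC, a GC-rich sequence known to be bound by SMADs of the BMP branch, and CAGAC with its complement GTCTG, the SMAD box. These motifs share no bases in the windows shown.
Id2: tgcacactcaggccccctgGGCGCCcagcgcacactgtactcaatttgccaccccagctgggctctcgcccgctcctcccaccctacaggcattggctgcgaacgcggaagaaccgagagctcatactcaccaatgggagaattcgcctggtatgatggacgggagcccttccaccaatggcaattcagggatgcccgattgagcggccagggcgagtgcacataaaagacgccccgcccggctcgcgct
Id3: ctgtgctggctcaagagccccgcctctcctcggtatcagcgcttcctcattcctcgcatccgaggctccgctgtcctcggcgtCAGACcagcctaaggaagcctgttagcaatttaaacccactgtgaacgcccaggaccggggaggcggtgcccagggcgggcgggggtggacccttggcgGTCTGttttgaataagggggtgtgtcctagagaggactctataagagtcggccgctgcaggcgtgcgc
Id4: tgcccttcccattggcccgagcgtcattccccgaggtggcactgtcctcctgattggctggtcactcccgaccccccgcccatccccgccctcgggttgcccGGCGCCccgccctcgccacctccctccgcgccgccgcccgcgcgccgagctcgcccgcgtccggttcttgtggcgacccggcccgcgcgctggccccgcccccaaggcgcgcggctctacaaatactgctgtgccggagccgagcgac
GGCGCC occurred 1 time each upstream of *Id2* and *Id4*, as it did for *Bmpr1a*, and 9.59% of the 32851 RefSeq windows of the same length held it. The SMAD box occurred 2 times upstream of *Id3*, and 42.2% of all windows held it on either strand. Neither motif was found in the window of *Bmp4* or of *Smad1*, while *Bmpr1b* had the SMAD box in 2 of its 3 windows. The GC content was 62.8% for *Id2* and for *Id3*, 75.6% for *Id4* and 78.8% for *Bmpr1a*, against a median of 52.4% over all windows. The shares of windows that held a motif are not matched for GC content. A match is only a description of the letters, and no window for *Id1* was in the table used.

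Expression is given as the log2 value that robust multi-array average (RMA) assigns to a gene on an array, so that a difference of 1 is a doubling. Each gene was tested with limma over all 6 arrays, with Benjamini-Hochberg adjustment over the 17144 genes. Genes that had an adjusted p below 0.05 and whose means differed over 1.5-fold were called, and "rose" and "fell" are used only for called genes. On this rule 4 of the 8 members were called, against a background of 34.1% of all genes. *Id2*, *Id3* and *Smad1* rose in NPCs, where 15.4% of all genes rose, and *Bmp4* fell, where 18.7% of all genes fell. On the adjusted p alone 5 members passed, the other being *Bmpr1a*, as did 49.0% of all genes. Over all 8 members the median log2 difference was 0.46, against -0.04 over all genes, and the median absolute difference was 1.27 against 0.33. These shares describe 8 chosen genes and test nothing. Replicates are called biological in the labels without further detail, so the p values measure only the spread between these cultures.

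The arrays had similar distributions, with medians from 5.75 to 5.76 in ESCs and 5.59 to 5.61 in NPCs. Centring each array on its median moved the median difference of all genes by 0.15, from -0.04 to 0.12, and took the higher ones from 45.1% to 55.6% of called genes. NPC replicate 3 stood apart, at r = 0.978 to 0.979 across genes with the other NPC arrays, which correlated with each other at 0.997. It lay more than 1 log2 unit from the average of NPC replicates 1 and 2 at 686 genes. Differences of the members are given with and without this array. The labels were checked against markers. *Pou5f1*, the core pluripotency factor and the only ESC marker of 8 that could be named, was at 12.44 ± 0.02 (SD, n = 3) in ESCs and 3.70 ± 0.11 (SD, n = 3) in NPCs. The 5 neural progenitor markers of 8 that could be named do not check the label, because nearly all named genes are higher in NPCs by the source of their names.

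**Figure D1:**
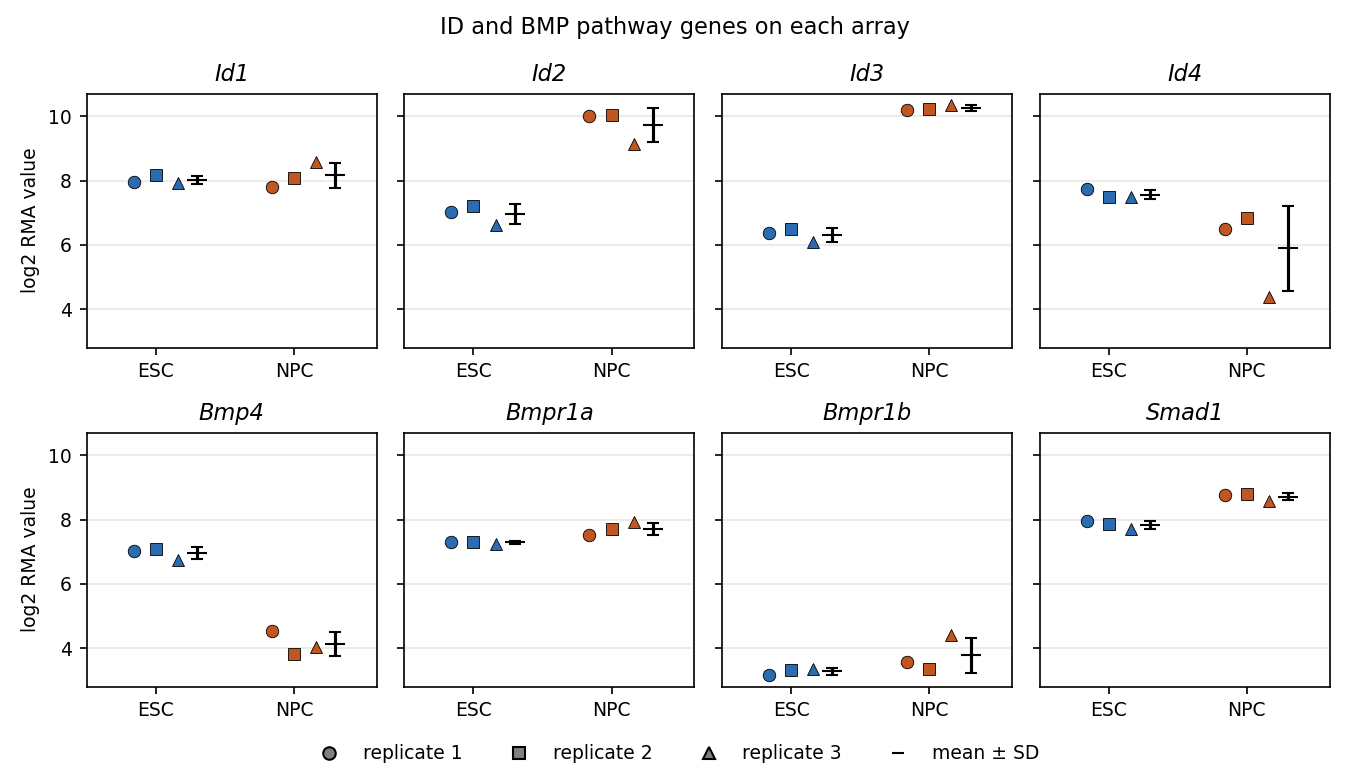
log2 RMA value (vertical axis) of each of the 8 genes on the 3 ESC arrays (blue) and the 3 NPC arrays (orange), with the marker shape giving the replicate and the bar the mean ± SD. *Id3* and *Id2* stand far higher in NPCs and *Bmp4* far lower, *Id1* overlaps, and NPC replicate 3 is the low point of *Id4* at 4.36 and the high point of *Bmpr1b* at 4.39.

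Among the *Id* genes, *Id3* (ENSMUSG00000007872_at) had the largest difference. This gene encodes an ID protein that BMP signaling induces in many cell types. Its log2 values were 6.36, 6.50 and 6.08 on the ESC arrays and 10.19, 10.23 and 10.35 on the NPC arrays. All NPC arrays lay close together and far above every ESC array. *Id3* rose by 3.94 on the log2 scale, or 15.4-fold, from 6.31 ± 0.21 (SD, n = 3) to 10.26 ± 0.08 (SD, n = 3), with a standard error of 0.12 and an adjusted p of 5.63e-07 from limma. Without NPC replicate 3 the rise was 3.89. Of the 17144 genes, 91 had a larger rise.

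*Id2* (ENSMUSG00000020644_at), another ID protein, known to restrain neuronal differentiation, rose as well. The ESC arrays gave 7.03, 7.21 and 6.61 and the NPC arrays 10.02, 10.05 and 9.12. NPC replicate 3 was the lowest NPC array, yet it lay well above all ESC arrays. The means were 6.95 ± 0.31 (SD, n = 3) and 9.73 ± 0.53 (SD, n = 3), a rise of 2.78 or 6.89-fold (standard error 0.28, adjusted p = 0.000138 from limma). Without NPC replicate 3 the difference was 3.09. The 95% interval over all arrays ran from 2.13 to 3.44.

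*Id1* (ENSMUSG00000042745_at), the member often used as a readout of BMP activity, did not pass the test. Its values were 7.96, 8.17 and 7.92 in ESCs and 7.81, 8.08 and 8.59 in NPCs, so that the cell types overlapped. The difference of 0.14 (95% interval -0.32 to 0.60, adjusted p = 0.602 from limma) changed sign without NPC replicate 3, to -0.07. The interval runs from a slight fall to about the 1.5-fold threshold. A lack of difference was therefore not shown.

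*Id4* (ENSMUSG00000021379_at), an ID protein known for its part in the timing of neural precursor differentiation, stood lower in NPCs. The ESC arrays gave 7.72, 7.48 and 7.48, and the NPC arrays 6.48, 6.82 and 4.36. Every NPC array was below every ESC array, and NPC replicate 3 was far below the other NPC arrays. The mean difference of -1.67 (standard error 0.59, 95% interval -3.06 to -0.28) had an adjusted p of 0.0509 from limma and narrowly missed the threshold. Without NPC replicate 3 the difference was smaller, -0.91, but its standard error fell to 0.13 and the gene was called (adjusted p = 0.000345 from limma). The other NPC arrays, at 6.48 and 6.82, were thus below the ESC arrays as well.

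**Figure D2:**
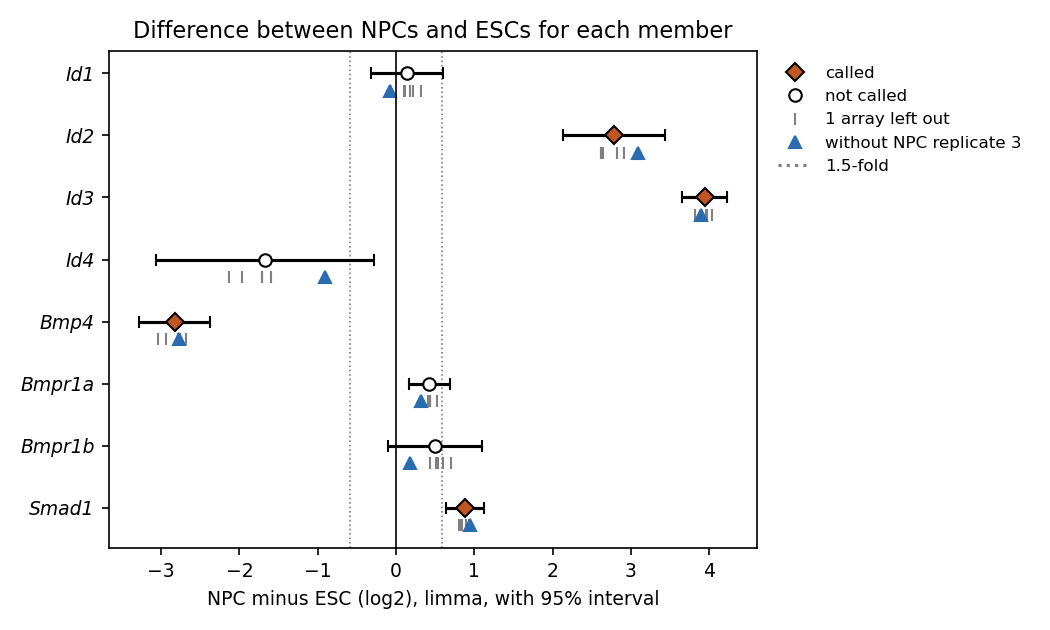
NPC minus ESC difference on the log2 scale (horizontal axis) for each gene, with its 95% interval from limma; filled diamonds are called genes, grey ticks the difference with 1 array left out, blue triangles that without NPC replicate 3, and dotted lines 1.5-fold. *Id3* at 3.94, *Id2* at 2.78, *Smad1* at 0.88 and *Bmp4* at -2.83 are called, and *Id4* has the widest interval.

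The ligand gene *Bmp4* (ENSMUSG00000021835_at) went the opposite way to *Id2* and *Id3*. BMP4 is a main BMP of the early embryo, where it promotes mesoderm and epidermis over neural fate. Its log2 values were 7.03, 7.08 and 6.75 on the ESC arrays and 4.54, 3.82 and 4.02 on the NPC arrays. All NPC arrays were more than 2 log2 units below the lowest ESC array. *Bmp4* fell by 2.83 on the log2 scale, or 7.11-fold, from 6.96 ± 0.18 (SD, n = 3) to 4.13 ± 0.37 (SD, n = 3), with a standard error of 0.19 and an adjusted p of 2.14e-05 from limma. Without NPC replicate 3 the difference was -2.78. A larger fall was seen at 416 genes. The NPC values lie near the lower quartile of an array, between 3.92 and 4.08, and detection calls were not used here, so whether any transcript remained is not known. In RNA from whole cultures, fewer cells that express a gene and less RNA per cell cannot be told apart.

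The type I receptors moved less. *Bmpr1a* (ENSMUSG00000021796_at), a broadly expressed BMP receptor, gave 7.30, 7.32 and 7.25 in ESCs and 7.53, 7.70 and 7.91 in NPCs. All NPC arrays were higher, and the difference of 0.42 had an adjusted p of 0.0156 from limma, but at 1.34-fold it stayed under the 1.5-fold threshold. Without NPC replicate 3 the difference was 0.33. *Bmpr1b* (ENSMUSG00000052430_at), the related type I receptor, gave 3.16, 3.32 and 3.35 in ESCs and 3.56, 3.35 and 4.39 in NPCs. These values lie at the low end of the arrays apart from NPC replicate 3, and the lowest NPC array was level with the highest ESC array. Its difference of 0.49 (95% interval -0.11 to 1.09) did not pass the test (adjusted p = 0.156 from limma), and without NPC replicate 3 it was 0.18.

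*Smad1* (ENSMUSG00000031681_at), which carries the signal from these receptors to the nucleus, rose in NPCs. The ESC arrays gave 7.95, 7.87 and 7.70 and the NPC arrays 8.77, 8.80 and 8.58. The cell types did not overlap and the arrays of each lay close together. From 7.84 ± 0.12 (SD, n = 3) to 8.72 ± 0.12 (SD, n = 3) the rise was 0.88, or 1.84-fold (standard error 0.10, adjusted p = 0.000334 from limma). It was 0.95 without NPC replicate 3.

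Taking the 8 genes by overlap alone, every NPC array exceeded every ESC array for *Id2*, *Id3*, *Bmpr1a*, *Bmpr1b* and *Smad1*, where this held for 26.1% of all genes. They were below for *Id4* and *Bmp4*, where this held for 32.6%. In either direction 7 of the 8 genes did not overlap, against 58.7% of all genes, and *Id1* was the exception. *Bmpr1b* is counted among the 7 by a very small gap, 3.3521 on NPC replicate 2 against 3.3508 on ESC replicate 3. An exact two-sided permutation test of 3 arrays against 3 gave p = 0.1 for each of these 7 genes, the smallest value it can give, and p = 0.7 for *Id1*.

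**Figure D3:**
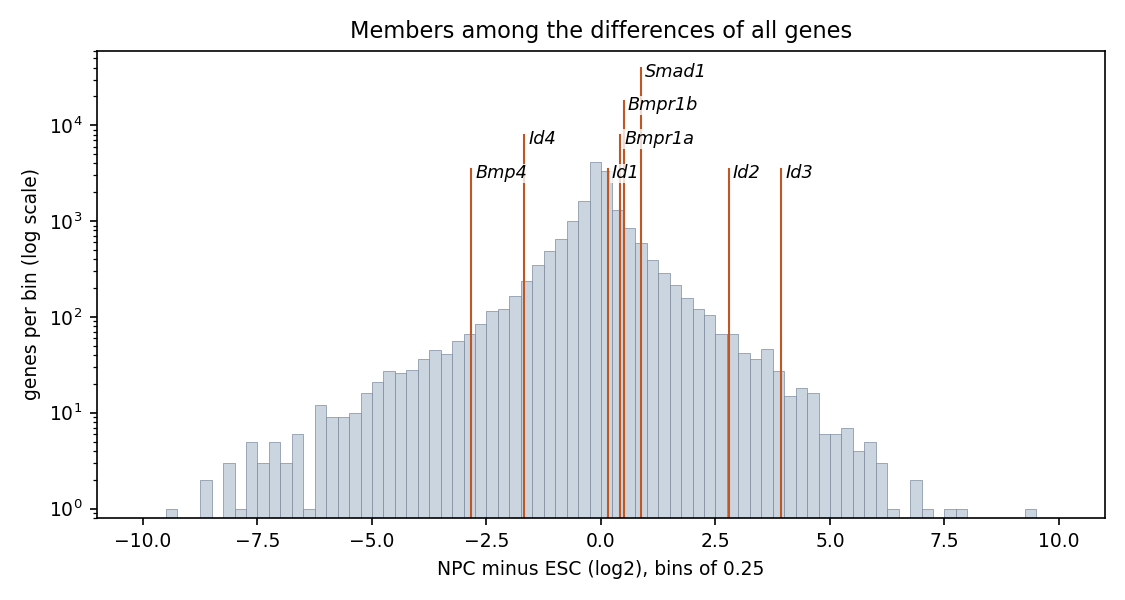
Number of genes (vertical axis, log scale) per bin of 0.25 of the NPC minus ESC log2 difference (horizontal axis), over 17144 genes, with orange lines at the 8 members. *Id3* and *Id2* lie in the upper tail, with 91 and 295 genes above them, and *Bmp4* in the lower tail with 416 genes below it. *Id1* lies near the center, and *Bmpr1a* and *Bmpr1b* somewhat higher, with 3440 and 3124 genes above them.

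NPC replicate 3 departed from the other NPC arrays at *Id4* above all. There it lay 2.29 log2 units below the mean of NPC replicates 1 and 2, a distance reached or passed by 0.519% of all genes. It was 0.91 lower at *Id2*, as far as 4.86% of all genes, and 0.93 higher at *Bmpr1b*, as far as 4.64%. *Id1* was 0.64 higher on this array, as far as 9.68% of all genes. *Id3*, *Bmp4*, *Bmpr1a* and *Smad1* departed by at most 0.30, as far as 57.2%, 52.7%, 30.5% and 42.7% of all genes. For *Bmp4* NPC replicates 1 and 2 differed more from each other, by 0.72, than NPC replicate 3 did from their mean. The departures went in different directions, down at *Id2* and *Id4* and up at *Id1* and *Bmpr1b*.

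**Figure D4:**
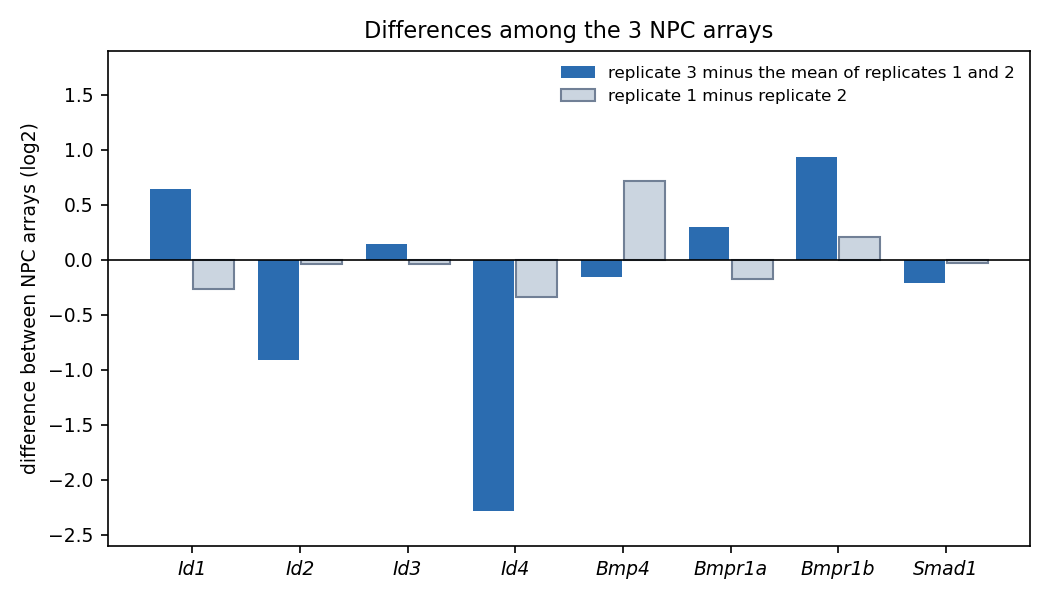
Differences among the 3 NPC arrays on the log2 scale (vertical axis) for each gene: blue bars give replicate 3 minus the mean of replicates 1 and 2, grey bars replicate 1 minus replicate 2. The bar of *Id4* reaches -2.29, those of *Id2* and *Bmpr1b* -0.91 and 0.93, and the bar of *Bmp4* is the longest of the grey ones at 0.72.

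Some cell type markers moved on the same array, neural progenitor markers among them. The astrocyte genes *Slc1a3* and *S100b*, the 2 of 6 listed that could be named, averaged 8.41 on NPC replicate 3 against 7.49 and 7.43 on NPC replicates 1 and 2. Both were also low in ESCs, where their mean lay between 4.62 and 4.79. The neuron list had only *Dcx* of 6 named, which encodes a microtubule protein of migrating neurons, at 3.76 on NPC replicate 3 and 4.86 and 5.06 on the others. The oligodendrocyte lineage genes *Olig1* and *Olig2*, of 6 listed, went opposite ways on this array. *Olig1* was at 12.99 on NPC replicate 3 and 13.21 and 13.22 on the others, and *Olig2* at 11.67 against 11.07 and 10.96. The 5 neural progenitor markers that could be named also split on NPC replicate 3, relative to the mean of NPC replicates 1 and 2. *Sox9*, *Fabp7* and *Notch1* were higher, by 1.27, 0.72 and 0.346, and *Nes* and *Vim* differed by -0.069 and -0.1803. On the same measure *Slc1a3* was higher by 1.10 and *S100b* by 0.797. Named genes of both the astrocyte and the neural progenitor list were thus higher on this array, while *Nes*, *Vim*, *Dcx* and *Olig1* were lower. None of the fibroblast, mesoderm or endoderm markers could be named. The part of these cell types in the values of *Id4*, *Id2* and *Bmpr1b* was not tested.

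The rest of the pathway could be read only in part, because gene names come from a printed list that holds almost only genes higher in NPCs. Of 52 BMP pathway genes listed, 16 could be named, and 8 of these are the members. Among the 16, 11 rose, 1 fell and 4 were not called, where 15.4% of all genes rose and 18.7% fell. The median log2 difference of the 16 was 1.10, but over the 8 members alone it was 0.46. The rise of the other 8 follows from how they came to be named and is given as values only, with no reading of the pathway as a whole. *Smad5*, the close relative of *Smad1* that acts beside it, went from 6.21 ± 0.12 (SD, n = 3) to 8.78 ± 0.37 (SD, n = 3), a rise of 2.57. The type II receptors *Bmpr2* and *Acvr2a*, which bind ligand and activate the type I receptors, rose by 1.18 and 0.83.

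Modulators outside the cell made up the other 5. *Bmper*, which encodes a secreted BMP-binding protein, rose by 2.84, and *Bmp1*, a protease that cleaves the BMP antagonist chordin, by 2.24. *Rgma*, a membrane-anchored BMP co-receptor, rose by 1.68. *Smoc1* and *Nbl1* encode secreted proteins that limit BMP signaling, and they rose by 1.64 and 1.02. For *Rgma*, *Smoc1*, *Smad5*, *Bmper* and *Bmpr2* NPC replicate 3 was the highest array, at 6.58, 9.25, 9.20, 7.52 and 5.875. For *Nbl1* and *Acvr2a* it was the lowest NPC array, at 5.10 and 7.62.

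The binding partners of ID proteins gave the same kind of partial view. Of 12 genes listed, 5 could be named, and all 5 rose, where 15.4% of all genes rose. This again follows from the source of the names. *Tcf4* and *Tcf12* encode E proteins, to which ID proteins bind directly. They rose by 3.44 each, to 10.75 ± 0.06 (SD, n = 3) and 11.30 ± 0.19 (SD, n = 3). *Olig1* and *Olig2*, bHLH factors of the oligodendrocyte lineage, rose by 3.92 and 3.81.

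Among 2008 other named genes, those closest to each member over the 6 arrays were found by Euclidean distance after centring each gene on its own mean. *Smad1* had the closest match, *Mfge8* at 0.08 log2 units, followed by *Fundc2* and *Grina*. *Id3* was closest to *Mageh1* at 0.28, then *2700089E24Rik*, then *Olig1* at 0.38. *Id2* was closest to *Yaf2* at 0.29, then *Lpar4* and *2810432L12Rik*. For *Id4* and *Bmp4* the search was poor, since only 6 named genes were lower in NPCs, with *Id4* and *Bmp4* themselves among the 6. The nearest to *Bmp4* was *Rfx2* at 0.93, then *Pou2f1* and *Id4*. The nearest to *Id4* was *Pou2f1* at 1.80, then *Rfx2* and *Pou4f2*. The same limit holds for genes near no difference. *Id1* was closest to *Bmpr1a* at 0.47 and then to *Bmpr1b* and *Rfx3*, *Bmpr1a* to *Rfx3* at 0.43, then *Id1* and *Gtpbp8*, and *Bmpr1b* to *Hrh1* at 0.48, then *Cbara1* and *Ap1m1*.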

How the data were processed

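RNA from 3 ESC and 3 NPC cultures was hybridized to Affymetrix mouse expression arrays. The deposited log2 values were computed by the authors with RMA, which corrects background, quantile normalizes probes and here summarizes them per Ensembl gene under an updated annotation (BrainCDF). Version and genome build: not given in the sources used here. Of 17208 rows, 64 control probe sets were left out. Groups and replicate numbers came from the sample labels. No filter or further normalization was applied. Arrays hold no counts, and their number limits the precision.

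limma 3.58.1 in R 4.3.3 (lmFit, eBayes, no covariates) tested NPCs against ESCs, with Benjamini-Hochberg adjustment over 17144 genes. The moderated Welch test of the methods was run as an alternative. The fit was also run on simulated arrays with independent normal noise and 200 changed genes, far fewer than were called here. It called 83 of 100 genes changed by 1 log2 unit, 96 of 100 changed by 2, and 8 unchanged genes. The simulation holds no array that stands apart as NPC replicate 3 does. Figures used Python 3.11.15 and matplotlib 3.10.9.

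Members carry the names given with their identifiers, and 3 of the 8 were also named by value. Other names came from rows of the supplementary tables whose 6 values equal a deposited row within 0.0001, which named 2009 genes in all and left 15135 unnamed. Promoter windows came from RefSeq tables. The genes named are the members, the named genes of both lists and the 3 nearest genes of each member, except 1 list gene that is counted but not reported here, and the cell type markers whose values are given beside a result. Members and lists were chosen with earlier results of these data known.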

Additional observations from a re-analysis of the deposited data

How the results depend on the processing

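The alternatives were other tests and variance models, the replicate number as a block, other scaling, filters on low values, other fold thresholds, and each array left out. *Id2*, *Id3*, *Bmp4* and *Smad1* kept their direction under every alternative that retained them, and were called in each except *Smad1* at a fold change over 2, where its 0.88 was not called. *Bmp4* was left out by the filter at the median, and *Bmpr1b* by both filters. *Id4* stayed at -1.67 but was called with a mean-variance trend (adjusted p = 0.0475), with the replicate block (0.0391), and with low genes filtered out, at the 25th percentile (0.0449) or the median (0.0446). With the moderated Welch test its adjusted p was 0.0579, and over all its alternatives it ran from 0.000345 to 0.262. Its difference ran from -2.14 to -0.91 when single arrays were omitted, and it was called without NPC replicate 2 (adjusted p = 0.0256) or NPC replicate 3. *Id1* ran from -0.071 to 0.32 with an array left out, the lower value without NPC replicate 3, and *Bmpr1b* from 0.18 to 0.70. *Bmpr1a* at 0.42 was called with no fold change threshold, but its adjusted p was 0.0503 without ESC replicate 1, 0.0558 without ESC replicate 3 and 0.124 with separate variances and no moderation. Quantile normalization and median centring reversed no member.

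The number of members lower in NPCs, and of BMP list genes lower, was 1 and became 2 with a mean-variance trend, with the replicate block and with the filter at the 25th percentile, and ran from 1 to 2 with an array left out. The filter at the median left 7 BMP list genes higher in place of 11, since it tests fewer genes. Over all genes 5851 were called and 3592 at a fold change over 2, with 1615 higher and 1977 lower. Among the 13 other list genes, 3 of 216 values lost their call, among them that of *Nbl1* with separate variances and no moderation and that of *Acvr2a* at a fold change over 2.

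Both cell types carry replicate numbers 1 to 3, and the labels do not say whether same-numbered arrays were paired. Deviations from the group means correlated at only 0.0264, 0.0110 and -0.00645 for the same-numbered pairs. These correlations are over all genes and cannot exclude a pairing that affects few of them. Of the members, the replicate block changed the call of *Id4* alone, and over all genes 5867 were then called.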
